A study of Schizosaccharomyces pombe with 2 samples.

Results

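The genes described here are the protein-coding genes of the subtelomeres of fission yeast, Schizosaccharomyces pombe. The rule that picks them uses position alone. A coding row of the read-count table belongs to the set if it lies wholly within 60 kb of an end of chromosome I or chromosome II in the assembly. The rule takes 83 of the 5147 coding rows on chromosomes I, II and III, with 26 at the left end of I, 18 at the right end of I, 20 at the left end of II and 19 at the right end of II. RefSeq annotates 73 of them as protein-coding and 10 as pseudogenes, and the latter are kept because the table lists them as coding. The remaining 5064 coding rows serve as the comparison.

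The reads come from 2 libraries of vegetative wild-type cells, labelled biological replicates 1 and 2, and there is no other group. The cells were haploid h- with the leu1-32 marker, and both libraries carry pat1-L95G::kanR, an allele of the gene of Pat1, the kinase that keeps cells from entering meiosis. They grew for 2 days at 30 °C in EMM, a minimal medium. Total RNA was depleted of ribosomal RNA, 350 ng was given a poly(A) tail in vitro, and the RNA molecules themselves were read on nanopores, so RNA without a natural tail could be read as well. The libraries held 12871729 and 12579850 counted reads over 12684 features, and the h- mating-type gene mfm1 (4405 and 4270 reads) stood far above the h+ gene map2 (2 and 0 reads), as labelled.

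Subtelomeres are the stretches of a chromosome just inside the telomere repeats. In fission yeast they are packed into heterochromatin near the end, where the histone methyltransferase Clr4 and the HP1 protein Swi6 act, and a further block of compacted chromatin that depends on the shugoshin Sgo2 and the methyltransferase Set2 lies inward of it. The genes there are known for near-identical copies shared between chromosome ends, among them the RecQ-type helicase genes tlh1 and tlh2, and for many products that face the environment, such as transporters, cell surface proteins and enzymes of nutrient use. The ends used here are the ends of the assembled sequence, where tlh1 is cut off at base 1 of chromosome I, and not the telomere repeats.

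Many of these genes have close copies, so a read may fit more than 1 of them. The starts of the coding sequences below belong to genes that the results return to. They show how close copies can be, both with similar and with very different counts. The L-asparaginase genes SPAC977.12 and SPBPB8B6.05c have the same first 120 bases and differ at 13 of 1071 coding positions. SPAC186.03 and SPBPB21E7.09, the latter outside the window at 76.3 kb, form a second pair that differs at 8 of the first 120 bases, set in capitals, and at 15 of 1083 coding positions. The last line is the start of the GPI-anchored protein gene SPAC212.12, which is the same in SPAC750.07c and SPAC212.08c. All are read 5′ to 3′ from RefSeq's ASM294v3.
SPAC977.12, chromosome I, 56492 to 56611, plus strand: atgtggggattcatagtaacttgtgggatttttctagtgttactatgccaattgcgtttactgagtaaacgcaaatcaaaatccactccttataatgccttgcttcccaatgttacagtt
SPAC186.03, chromosome I, 5535198 to 5535317, plus strand: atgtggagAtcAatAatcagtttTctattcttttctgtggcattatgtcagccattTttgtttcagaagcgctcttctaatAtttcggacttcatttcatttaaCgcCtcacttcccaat
SPBPB21E7.09, chromosome II, 76318 to 76437, plus strand: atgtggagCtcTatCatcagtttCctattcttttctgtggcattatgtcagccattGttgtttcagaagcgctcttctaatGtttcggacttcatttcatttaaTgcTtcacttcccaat
SPAC212.12, chromosome I, 15855 to 15974, plus strand: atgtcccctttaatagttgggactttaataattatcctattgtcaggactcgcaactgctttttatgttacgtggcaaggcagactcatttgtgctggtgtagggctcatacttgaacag

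Most subtelomeric genes had few reads or none. The median member had 1 read in replicate 1 and 1 read in replicate 2, whereas the median of the other coding genes was 125 and 130 reads. Levels are given below as CPM per kb, the reads of a gene per 1000000 reads of its library, divided by the length of the gene in kb. On this scale the median of the members was 0.0541 ± 0.00109 (SD, n = 2 libraries), against 5.13 ± 0.253 for the other coding genes, or 1.06% ± 0.0308 of their level. Since the median member had 1 read in each library, its SD reflects the library totals and gene lengths more than any spread between replicates. In these bulk RNA samples, little RNA in every cell and more RNA in few cells cannot be told apart. No p-value is attached to it, since genes of a list are not replicates. Of the 83 members, 61 had under 10 reads in both libraries together, while 145 of the 5064 other coding genes did (2.86%). The members made up 29.6% of the coding genes below this minimum but 1.61% of coding rows.

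No read at all was found for 31 members in either library, compared with 34 of the 5064 other coding genes (0.671%). Another 12 members were read in 1 library only, and 40 in both. A count of 0 over both libraries allows a level of up to 0.0551 to 0.666 CPM per kb, depending on the length of the gene, which ran from 177 to 2138 nt. This limit rests on 3 counts of the summed library totals and, like all intervals here, covers counting error only. Together the members took 1608 and 1666 reads, 0.0476% and 0.0502% of the reads of coding genes. A few genes hold most of them, with 1293 and 1349 reads, or 80.4% and 81.0%, in the 7 members with the most reads.

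**Figure D1:**
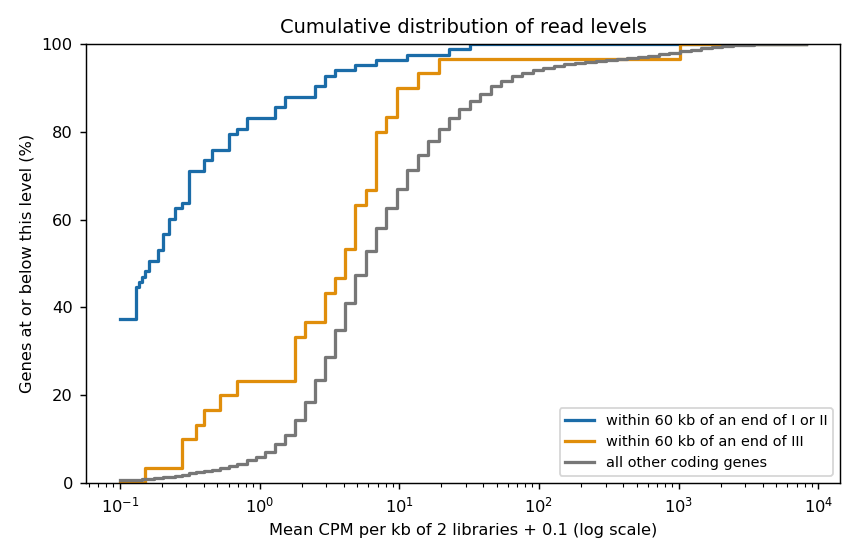
Cumulative share of genes (y axis, %) at or below a mean level (x axis, CPM per kb of 2 libraries plus 0.1, log scale) for the 83 members, the 30 genes within 60 kb of an end of chromosome III and the 5064 other coding genes. The curve of the members starts at 37.3%, the share with no read, and lies above both other curves over most of the range.

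Only 4 members lay above the median level of all coding genes and 8 above its lower quartile. The highest was SPAC977.12, 56.5 kb from the left end of I, for an L-asparaginase, the enzyme that releases ammonia from asparagine. It had 402 and 459 reads, 27.2 ± 2.99 CPM per kb, and 85.6% of coding genes were lower. Its near-copy SPBPB8B6.05c, 54.3 kb from the left end of II, had 322 and 352 reads, 21.3 ± 1.68 CPM per kb. The other members above that median were nhe1, whose product exports sodium in exchange for protons, and fex2, for a fluoride export channel. For nhe1 there were 245 and 236 reads, 10.1 ± 0.104 CPM per kb. For fex2 there were 113 and 99 reads, 6.08 ± 0.469 CPM per kb. The second fluoride channel gene, fex1, reached 4.38 ± 0.274 CPM per kb with 74 and 79 reads. All 5 of these genes lie between 52.0 and 56.5 kb from an end, on the left arms of I and II.

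The next 5 by level were SPAC212.12 (18 and 10 reads, 2.95 ± 1.15 CPM per kb), the pseudogene SPAC977.13c (24 and 35 reads, 2.80 ± 0.783), the pseudogene SPBCPT2R1.10 (20 and 22 reads, 2.50 ± 0.209) and the phospholipase genes SPBC1348.10c (68 and 64 reads, 2.34 ± 0.0623) and plb4 (69 and 60 reads, 2.22 ± 0.183). These 5 levels overlap once the spread of the libraries is counted, so their order is not settled. SPBCPT2R1.10 adjoins the 5′ side of tlh2 on the same strand, and whether reads of tlh2 are counted in its level was not tested. In all, 22 members had 10 or more reads, and their median was 1.24 CPM per kb.

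The members were also grouped by product. By words in the RefSeq product name or symbol, 41 members fall into 7 lists and 42 remain, most of them for uncharacterized proteins or pseudogenes. The list of other enzymes takes names with a word ending in -ase, so SPAC750.08c, named a malic enzyme and with no read, is among the 42. Names can also split copies. SPAC750.07c, a copy of the cell surface gene SPAC212.12, and SPAC977.04, a copy of transporter genes, are named uncharacterized and are among the 42. Of the 3 asparaginase genes 2 were high and SPAC186.03 was low, with 1 and 5 reads, 0.189 ± 0.180 CPM per kb. The 3 galactose genes, which lie together at the right end of II, all had 10 or more reads. These were gal1 for galactokinase (26 and 38 reads, 1.28 ± 0.358 CPM per kb), gal7 for the uridylyltransferase (21 and 20 reads, 1.10 ± 0.0202) and gal10 for the epimerase (18 and 13 reads, 0.346 ± 0.0735). In the order given, 10.8%, 9.31% and 4.06% of coding genes were lower.

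Of the 8 transporter genes, 3 had 10 or more reads (nhe1, fex2 and fex1) and the other 5 were at or near 0. No read was found for the urea transporter gene SPBPB8B6.02c, nor for SPBC1348.05 and SPBPB2B2.16c. The hexose transporter gene ght7 had 0 and 1 reads and SPAC750.02c had 1 and 1. Among 5 cell surface genes only SPAC212.12 passed 10 reads. The glycoprotein genes pfl6 and SPBC1348.08c had 0 and 1 reads each, pfl9 had none, and SPAC212.08c had 1 and 3. Both genes for transcription factors were low, grt1 with 1 and 1 reads and SPBC1348.12 with 0 and 3.

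Of the 17 other enzyme genes, 14 were under 10 reads and 10 had none. The unread ones were pdc102 for a pyruvate decarboxylase, the lactate dehydrogenase gene SPAC186.08c, the hydroxyacid dehydrogenase genes SPAC186.07c and SPAC186.02c, the amidase gene SPAC869.01, the acetamidase gene fah1, the methyltransferase genes SPAC750.03c and SPBC1348.04, and the dehydrogenase genes ayr2 and SPBC1348.09. The 3 with 10 or more reads were the pair of phospholipase genes and tgd1, a nucleotide-sugar dehydratase gene, with 8 and 7 reads. The median of the list was 0 CPM per kb in both libraries.

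**Figure D2:**
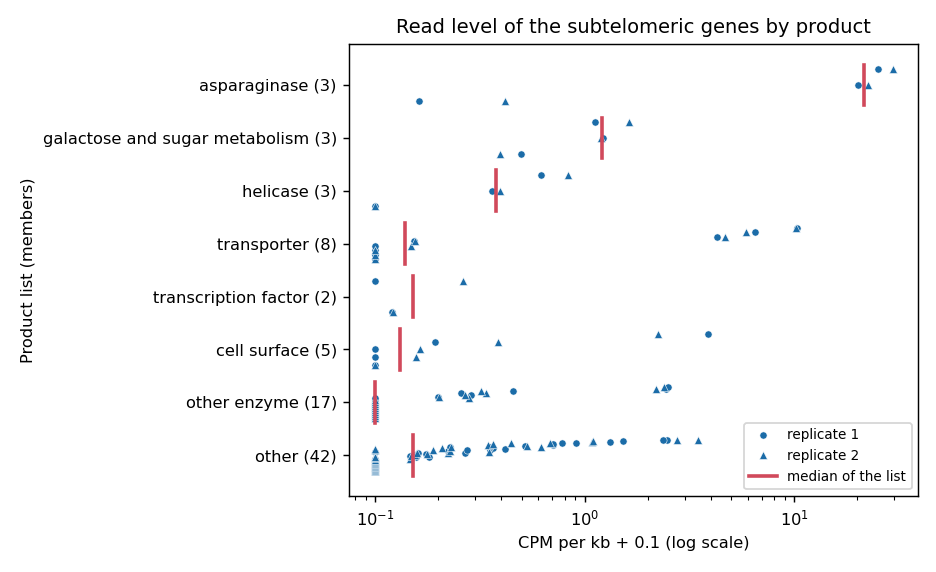
Level of each member (x axis, CPM per kb plus 0.1, log scale) by product list (y axis, with the number of members), circles for replicate 1 and triangles for replicate 2, with a bar at the median of each list. The asparaginase list has its median at 21.3 CPM per kb with 1 gene near the left edge, and the list of other enzymes has its median at 0.

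The helicase genes nearest the ends were read, though weakly. For tlh1, at the very start of chromosome I (1 to 5662), there were 19 and 21 reads, 0.278 ± 0.0241 CPM per kb. For tlh2, 6.91 kb from the right end of II (4526885 to 4532899), there were 40 and 55 reads, 0.622 ± 0.149. Their 95% exact Poisson intervals were 0.157 to 0.407 and 0.183 to 0.451 CPM per kb for tlh1 in the 2 libraries, and 0.369 to 0.704 and 0.548 to 0.946 for tlh2. Only 3.73% of coding genes were lower than tlh1 and 5.83% lower than tlh2. The genes share 5662 aligned bases with 1 difference and code for the same 1887 residues over the aligned stretch, so a read inside that stretch can be given to either of them by sequence only where it covers that base. Per kb and over both libraries tlh2 was 2.24 times tlh1, with a 95% exact binomial interval of 1.53 to 3.32. The gene tlh1 lies on the minus strand and is cut off at base 1, its 3′ side, while tlh2 spans 6015 nt. Reads of the part of tlh2 that the assembled tlh1 lacks can be counted only for tlh2. How much this and read placement add to the ratio was not tested. The sum of tlh1 and tlh2 was 59 and 76 reads. The third helicase gene, SPAC212.06c at 18.1 kb, had no read.

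Over the 4 ends together, levels varied little with distance over the outer 50 kb and were higher at the inner border of the window. In 10-kb steps from the end, counted by the nearer edge of each coding gene over the 4 ends, genes under 10 reads were 7 of 10, 14 of 16, 11 of 15, 16 of 18 and 10 of 12 out to 50 kb. From 50 to 60 kb they were 3 of 15, 3 of these 15 genes reaching over the border of the window. At the right end of I, 2 of the 3 genes of this step were under 10 reads. SPAC977.12 and fex1, at the left end of I, lie in this step. So do SPBPB8B6.05c and fex2, at the left end of II, which code for near-identical or the same proteins. Beyond the window, genes under 10 reads were 9 of 14, 4 of 11, 4 of 11 and 0 of 15 out to 100 kb. The low stretch did not stop at 60 kb at every end.

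Taking the members nearer than 50 kb, a split made after these steps were seen, 58 of 71 had under 10 reads and their median was 0.0234 ± 0.0331 CPM per kb. The 12 members farther in had a median of 1.95 ± 0.381, with 3 under 10 reads. The members nearer than 50 kb gave 379 and 364 reads in all, 23.6% and 21.8% of the reads of the set.

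Over the 83 members, Spearman's rho of level against distance was 0.212 (0.174 and 0.249 in the separate libraries), and Pearson's r of log2(CPM per kb + 0.1) was 0.320. The ends differed in sign, with a Pearson's r of 0.528 at the left end of I (26 genes), 0.417 at the left end of II (20 genes), 0.0528 at the right end of II (19 genes) and -0.268 at the right end of I (18 genes), where it was negative in both libraries (-0.368 and -0.168). This is a description over neighbouring genes of the same libraries. Within 30 kb of an end rho was -0.0688.

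**Figure D3:**
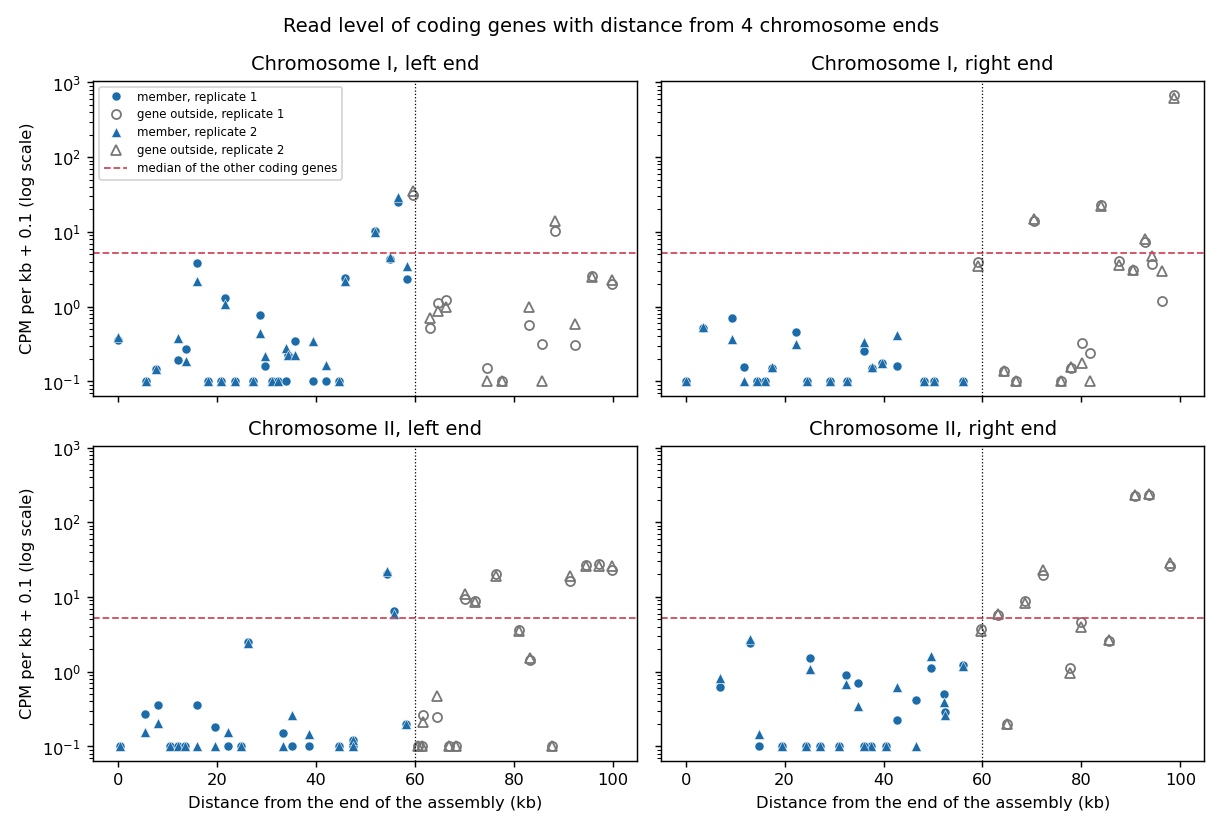
Level of each coding gene (y axis, CPM per kb plus 0.1, log scale) against distance from the assembly end (x axis, kb) at the 4 ends, circles for replicate 1 and triangles for replicate 2, filled for members and open for genes beyond the window. The dashed line is the median of the other coding genes (5.13 CPM per kb), and the members of the right ends of I and II all lie below it in both libraries.

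At the left end of I, tlh1 was followed by scattered low genes. The longest run of neighbours under 10 reads went over 9 genes from ftm1 at 29.8 kb to ayr2 at 44.7 kb and held 4 and 8 reads. From plb4 at 45.9 kb inward each gene had over 50 reads in the 2 libraries together. The innermost member was SPAC977.13c at 58.3 kb (24 and 35 reads), and the next gene, SPAC977.14c for an aldo-keto reductase, reaches over the border and had 496 and 552 reads, 33.5 ± 3.08 CPM per kb. Farther in the level fell back, to 5 and 7 reads for SPAC977.15 at 63.0 kb and to 1 and 0 reads for SPAPJ695.02 at 74.5 kb.

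The right end of I had 1 member with 10 or more reads among its 18. SPAC750.08c, the outermost gene, and SPAC869.01, the innermost at 56.0 kb, had no reads. A run of 15 neighbours from ftm4 at 11.9 kb to SPAC869.01 held 12 and 14 reads in all. That member was SPAC750.06c at 9.33 kb with 7 and 3 reads. The border gene yhb1, for a nitric oxide dioxygenase that detoxifies nitric oxide, had 101 and 87 reads, 3.69 ± 0.329 CPM per kb.

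At the left end of II, 10 genes from SPBC1348.15 at 0.303 kb to SPBC1348.09 at 24.9 kb held 11 and 4 reads, and the next, SPBC1348.10c at 26.2 kb, had 68 and 64. The asparaginase and fluoride channel genes at 54.3 and 55.8 kb stood between low neighbours. The innermost member, eno102 for an enolase, had 2 and 2 reads, and the first gene outside, SPBPB21E7.02c, had 0 and 0. At the right end of II the runs were shorter, at most 5 genes (SPBPB2B2.18 to SPBPB2B2.14c, 4 and 4 reads). The innermost member there was gal7, and the first gene outside was pan5 for a reductase of pantothenate synthesis (70 and 63 reads, 3.53 ± 0.206 CPM per kb). The median over the members of each end was 0.102 ± 0.0365 CPM per kb for the left end of I, 0.0133 ± 0.0188 for the right end of I, 0.0103 ± 0.000167 for the left end of II and 0.177 ± 0.0138 for the right end of II. The median reads were 0.5 and 0 at the right end of I and 0.5 and 0.5 at the left end of II. The order of these 2 ends is therefore not settled, and their SDs say little of the spread between replicates.

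The ends of chromosome III, which border the ribosomal DNA arrays, are not in the rule. The 12 coding genes within 60 kb of its left end had a median of 2.19 ± 0.492 CPM per kb, and the 18 of its right end 4.88 ± 0.265. Of these 30 genes 4 were under 10 reads and none was without a read.

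Copies are the second feature that the rule did not use. By DNA, 55 of the 83 members shared at least 95% identity over at least 80% of the shorter gene with another coding gene, and they form 20 groups with 56 genes. By protein, 46 of the 73 members with an annotated protein had a partner at 95% identity or more. Over 50% of the 200-nt windows of the gene occurred a second time in the assembly for 49 of the 81 members long enough to hold such a window, as against 31 of 5054 other coding genes (0.613%). How reads that fit several places were counted is not given in the sources used here. A count for a copy is therefore uncertain. The sum over its group is less so only if such reads were kept and placed on some copy.

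Low counts were found in members with and without much repeated sequence. Of the 32 members with at most 50% repeated windows, 25 were under 10 reads and 12 had none. Of the 49 with more, 34 were under 10 and 17 had none. The medians were 0.0504 ± 0.0215 and 0.0578 ± 0.00245 CPM per kb. The median gene of the 49 had 1 read in each library. Counts this low do not settle whether the groups differ in level, and the SDs say little of the spread between replicates. The other 2 members, the pseudogenes SPAC212.05c and SPBCPT2R1.05c, are too short for a window and had no read. In 12 of the 20 groups no copy reached 10 reads.

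In 6 groups no copy had a read in either library. These were SPAC212.03, SPBC1348.15 and SPBCPT2R1.03, the ftm2, ftm3, ftm6 and ftm7 genes for transmembrane proteins, the pair of pseudogenes SPAC212.05c and SPBCPT2R1.05c, the dehydrogenase pair ayr2 and SPBC1348.09, the pair SPAC212.02 and SPBCPT2R1.02, and the pair SPAC977.18 and SPBPB2B2.18. These genes sit at 2 to 4 different ends, and were unread at each. Another 6 groups had between 1 and 10 reads in the sum of all copies and libraries. They were SPAC212.09c, SPAC750.08c and SPBCPT2R1.07c; the methyltransferase genes SPAC977.03, SPAC750.03c and SPBC1348.04; SPAC977.04 with the transporter genes SPAC750.02c, SPBC1348.05 and SPBPB2B2.16c; the Vel1p domain genes SPAC977.05c, SPBC1348.06c and SPBPB2B2.15; SPAC977.06, SPBC1348.07 and SPBPB2B2.14c; and pfl6 with SPBC1348.08c.

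In 3 groups every copy had 10 or more reads. Besides tlh1 and tlh2 these were the phospholipase pair and the asparaginase pair. The genes plb4 (45875 to 48160 on I) and SPBC1348.10c (26155 to 28372 on II) are alike over 2218 nt with no difference. Their sums were 129 and 132 reads, and the level of SPBC1348.10c was 1.05 times that of plb4 per kb, with a 95% exact binomial interval of 0.821 to 1.35 that holds an even split. Their sequence cannot tell the reads of these genes apart. SPAC977.12 and SPBPB8B6.05c differ at 58 of 1246 aligned bases, most of them outside the coding sequence. Their ratio was 1.28 with an interval of 1.15 to 1.42.

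The other 5 groups had copies on both sides of 10 reads. Among the copies that both had reads, the second asparaginase pair had the largest ratio. SPAC186.03, 42.7 kb from the right end of I, had 1 and 5 reads, and SPBPB21E7.09, 76.3 kb from the left end of II, had 342 and 319, 19.5 ± 0.644 CPM per kb. Per kb and over both libraries the latter was 104-fold higher, with an interval of 47.5 to 284. The ratio was 322 in replicate 1 and 60.2 in replicate 2, with 1 and 5 reads of SPAC186.03 behind them. Their proteins are 98.6% identical, and 42.4% of the 200-nt windows of SPAC186.03 occur elsewhere, while 46 differences lie in the 1238 aligned bases. The part of read placement in this gap was not tested, and the pair was singled out after its values were seen.

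The GPI-anchored group had 18 and 10 reads at SPAC212.12, 2 and 2 at SPAC750.07c, 1 and 3 at SPAC212.08c and none at the pseudogene SPBCPT2R1.06c. SPAC212.12 and SPAC750.07c are the same over all 372 nt, whose start is printed above, so their ratio of 7 (interval 2.45 to 27.5) has no basis in the gene sequence itself, and the part of read placement in it was not tested. SPAC212.12 was taken for the ratio as the copy with the most reads of its group, which the interval does not allow for. SPBCPT2R1.10 had 20 and 22 reads while its copy SPAC212.10, next to tlh1, had none. SPBCPT2R1.10 ends at 4526884 and tlh2 starts at 4526885, both on the plus strand. Whether reads of tlh2 were counted at SPBCPT2R1.10 was not tested. In the group of 5, SPBCPT2R1.04c had 22 and 15 reads, SPBCPT2R1.01c 10 and 7, SPAC212.01c 8 and 4, SPAC750.06c 7 and 3, and SPBC1348.01 3 and 1. In the ftm1 group SPBPB2B2.19c had 10 and 4 reads, ftm5 5 and 2, ftm1 1 and 2, and ftm4 1 and 0. In both of these groups the highest copy was at the right end of II, but sequence hardly separates the copies. SPBPB2B2.19c and ftm5 are alike over 1292 nt with no difference, and their ratio per kb was 2.29 (interval 0.864 to 6.70). SPBCPT2R1.04c and SPAC212.01c differ at 1 of 920 aligned bases, with a ratio of 2.36 (interval 1.20 to 4.98). The highest copies were picked by their reads, which the intervals do not allow for. The part of read placement was not tested.

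**Figure D4:**
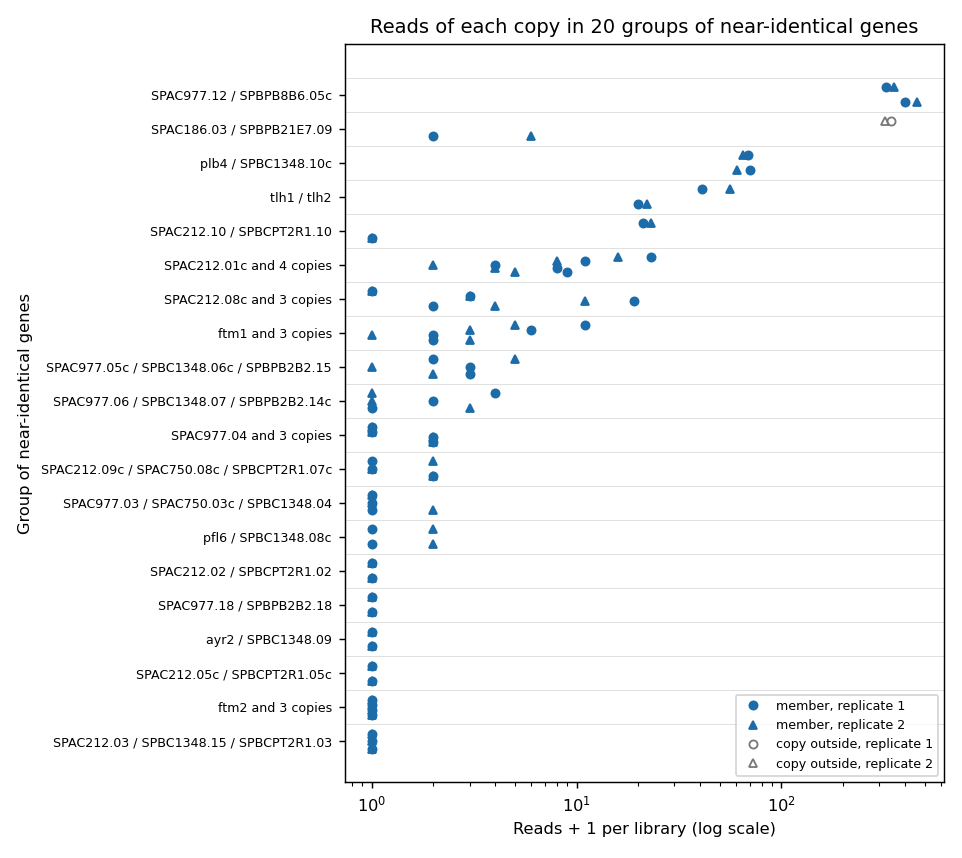
Reads plus 1 per library (x axis, log scale) for each gene of the 20 groups of near-identical genes (y axis), circles for replicate 1 and triangles for replicate 2, filled for members and open for the copy outside the window. In 6 groups all points lie at 1, no read, and in the asparaginase group of SPAC186.03 the copy outside stands apart at 342 and 319 reads.

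The fluoride channel genes fex1 and fex2 fell under the DNA limit but code for the same 311 residues. With 153 and 212 reads in all, the level of fex2 was 1.39 times that of fex1 per kb, interval 1.12 to 1.72. SPAC212.04c, a relative of the group of 5 at 70.1% protein identity to SPAC212.01c, had 23 and 18 reads, 1.10 ± 0.172 CPM per kb.

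Length, introns and base content were compared as well. The median member was 1095 nt long, against 1778 nt for the other coding genes, and 24.1% of members had an intron against 47.1%. GC content was alike, with medians of 36.5% and 36.8%. The motif TNAAAC, the core read in RNA by the YTH protein Mmi1 that this study is concerned with, was searched on the sense strand of the gene span and occurred at a median of 1.41 per kb in members and 1.65 in the other coding genes, with at least 1 match in 83.1% and 90.8% of genes. Of the 10 pseudogenes, 8 were under 10 reads. By direction, 32 members were transcribed toward the end and 51 away from it, with 22 and 39 under 10 reads.

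Antisense features held few reads. Direct RNA reads carry the strand of the RNA, but whether the counting used it is not stated, so counts of overlapping opposite genes are uncertain. Annotated antisense features overlapped 49 members, and their reads summed over the members were 72 and 60. A feature that overlaps 2 members enters this sum for each of them. Members that overlap on opposite strands, such as gal10 and tgd1, enter it with their own reads. In 6 members the antisense features had more reads than the gene in both libraries. For eno102 these were the 10 and 14 reads of SPNCRNA.1302, and for tgd1 the 18 and 13 reads of gal10, which runs over it on the other strand. For the unread SPBPB2B2.18 they were the 10 and 4 reads of SPBPB2B2.19c. These genes overlap only at their tips, as SPBPB2B2.18 ends at 4503664 and SPBPB2B2.19c starts at 4503653. All reads of an overlapping feature were taken, however short the overlap, so they need not lie over the member. The last 3, SPAC186.02c, SPAC750.03c and fah1, had at most 2 antisense reads per library. No member shared its strand with an overlapping feature.

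Non-coding RNA genes within the same windows were low too. The table lists 123 of them, with 77 and 90 reads in all and 81 with no read. At 10 reads or more were 4, or 3.25%, as against 22.6% of the 7213 non-coding RNA features of this naming in the genome. The highest, SPNCRNA.19 on chromosome I (51158 to 51583, plus strand), had 21 and 26 reads.

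The 12 genes for known factors of subtelomeric silencing were all read, between 0.874 CPM per kb (rap1, 27 and 27 reads) and 7.01 (swi6, 151 and 151 reads), with a median of 2.18. All 12 had 10 or more reads, as did 4919 of the 5064 other coding genes, whose median was 5.13 CPM per kb. The methyltransferase gene clr4 had 91 and 100 reads and the telomere protein gene taz1 69 and 91. None of the 12 was called different between the libraries by the binomial test given below. Whether they act on the members in these cells was not tested, as the series holds no mutant of them.

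The libraries were compared gene by gene. Each feature with at least 10 reads in sum was tested with a two-sided exact binomial test of its split between the libraries against their totals, adjusted by Benjamini-Hochberg over 6752 features. Of the 22 members tested, 0 passed an adjusted p of 0.05, and 283 of all features did (4.19%). At an unadjusted p under 0.05 was 1 member, SPAC977.12 (log2 ratio of replicate 1 to 2 of -0.22, exact p = 0.0244, adjusted p = 0.255). The count was also 0 with TMM factors from edgeR, with DESeq2 size factors and with a chi-square test. Most members had too few reads for this test, and 61 were not tested.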

How the data were processed

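The deposited table lists whole-number read counts per annotated feature in 2 libraries. The authors used dorado for base calling and minimap2 with its splice preset for mapping. The build is not given in the sources used here, nor is the counting tool. Header names stand 1 cell to the right of their data. Columns were read by position, and rounding, done as for estimated counts, altered 0 values of the deposited table. Membership follows position alone, but the window and the lists were chosen with earlier results of these data known. CPM was taken over all 12684 features and divided by gene span. All 83 members have the same start and end in RefSeq's ASM294v3, which gave symbols, products and sequences. Coding rows of a telomeric gap of chromosome II (5, listed at 0) were not counted. Copies were found with BLAST+ 2.17.0. Python 3.11.15, scipy 1.17.1, R 4.3.3, edgeR 4.0.16 and DESeq2 1.42.0 were used, the last pair for scaling factors. The binomial test was tested on simulated data. Named were tlh1, tlh2, members with near-identical proteins, the 10 highest, border genes, unread genes and each product list's extremes. Distance runs to the nearer gene edge. The libraries are biological replicates per the labels, and the binomial test measures the difference between these libraries only.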

Additional observations from a re-analysis of the deposited data

How the results depend on the processing

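The median level of the members, 1.06% of that of the other coding genes, was 1.03 and 1.08% in the single libraries and did not move with TMM factors, with the total of coding genes, or without members overlapping a feature on their strand, of which there were none. It was 0.785% with CPM not divided by length, 0.480% for a window of 30 kb, 2.85% for 100 kb, 0.442% without members with a near-identical protein copy and 24.5% over genes with 10 or more reads, where 61 members drop out. The 61 members under 10 reads became 30 in a 30-kb window, 78 in a 100-kb window and 29 without protein copies, all of which change how many genes are counted; they were 56 and 66 with minimums of 5 and 20 reads, and 59 to 63 with 1 library left out. Spearman's rho of 0.212 ranged from 0.174 to 0.249 with 1 library left out. It was -0.0688 in the 30-kb window, 0.498 in the 100-kb window, 0.433 over members with 10 or more reads, 0.289 without protein copies, 0.149 without the left end of I and 0.303 without the right end of I; the cause was not tested. An alternative chosen after seeing the data left out members with over 50% repeated windows, keeping 2 that are too short for a window, and gave 0.591%, 27 members and a rho of 0.294. No member was called different between the libraries under any test run. No paired analysis was possible because both libraries belong to 1 group. Direct RNA reads start at the 3′ end of a molecule, so dividing by length lowers long genes such as tlh1 and tlh2 against short ones. Counts under 10 fix a level only within a few fold.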
